A study of Mus musculus with 35 samples.

Results

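The mevalonate pathway enzymes studied here are Hmgcs1, Mvk, Pmvk, Mvd, Idi1 and Fdps, 6 of the 24421 genes listed in each library, chosen by name as enzymes of this route. RNA-seq counts came from 35 libraries of iMEFs, immortalized mouse embryonic fibroblasts that carry 1 floxed and 1 null allele of Nelfb (Nelfb flox/-). Nelfb encodes a subunit of the negative elongation factor NELF, which binds RNA polymerase II near promoters. In 20 population libraries, cells held the empty pLenti vector (EV) or pLenti with NELFB as WT, MT194, MT486 or the double mutant DMT. Each population was infected with adenovirus for Cre (Ad-Cre), which deletes the floxed allele, or with Ad-GFP, which leaves it in place, and was harvested on day 7 in 2 replicates. The other 15 libraries came from stable clones isolated after Ad-Cre, 3 each of WT, MT194 and MT486 in pLenti, and of WT(N48) and Δ-C60 in pBabe by the labels. MT194 is an alanine substitution that no longer binds NELFA and NELFC, MT486 and the C-terminal truncation Δ-C60 no longer bind NELFE, and DMT combines both substitutions. All cells derive from 1 floxed genotype, the lentiviral backbone has a CMV promoter, and each clone library is labelled as 1 isolated clone. Reads on genes numbered 17969149 to 29080007 per population library (median 21617290.5) and 18413284 to 27816723 per clone library (median 20933014).

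The mevalonate pathway builds isoprenoids from acetyl-CoA in nearly every cell. Hmgcs1 condenses acetoacetyl-CoA and acetyl-CoA to HMG-CoA, the precursor of mevalonate. Mvk and Pmvk phosphorylate mevalonate in turn, Mvd decarboxylates the product to isopentenyl diphosphate, Idi1 isomerizes it, and Fdps joins the units to farnesyl diphosphate. Farnesyl diphosphate then feeds squalene and cholesterol, or protein prenylation, dolichol and ubiquinone. Transcription of the pathway is known to be driven by SREBP2, which acts with NF-Y and Sp1 at the promoters of these genes when sterols in the endoplasmic reticulum are low.

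Since the 6 enzymes moved together in what follows, their promoter windows are shown first. The RefSeq table of promoters (build GRCm38.p6, 250 bases before to 50 after each start) held 6 windows for 5 of the genes, 2 of them for Pmvk, and none for Fdps was used here. Below are the 250 bases before the start of the 4 genes with more than 1 match to CCAAT, the letters bound by NF-Y, each 5′ to 3′ on the gene's own strand. Capitals mark CCAAT or its reverse complement ATTGG and, in Hmgcs1, the match TCACCCCAC to the sterol regulatory element, searched as TCACNCCAC. The regions are chr13:119690101-119690350 on the plus strand for Hmgcs1, chr5:114444019-114444268 on the plus strand for Mvk, chr8:122443423-122443672 on the minus strand for Mvd and chr13:8885356-8885605 on the plus strand for Idi1.
Hmgcs1: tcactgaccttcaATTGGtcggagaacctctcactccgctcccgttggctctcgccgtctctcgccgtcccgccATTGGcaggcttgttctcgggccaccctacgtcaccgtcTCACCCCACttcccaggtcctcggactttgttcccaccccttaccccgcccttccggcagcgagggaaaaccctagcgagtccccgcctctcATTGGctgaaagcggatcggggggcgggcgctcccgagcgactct
Mvk: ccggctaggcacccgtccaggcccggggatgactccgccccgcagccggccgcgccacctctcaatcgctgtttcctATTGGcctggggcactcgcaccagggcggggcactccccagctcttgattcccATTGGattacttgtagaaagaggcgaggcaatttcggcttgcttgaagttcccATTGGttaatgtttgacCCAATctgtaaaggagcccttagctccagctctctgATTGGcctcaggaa
Mvd: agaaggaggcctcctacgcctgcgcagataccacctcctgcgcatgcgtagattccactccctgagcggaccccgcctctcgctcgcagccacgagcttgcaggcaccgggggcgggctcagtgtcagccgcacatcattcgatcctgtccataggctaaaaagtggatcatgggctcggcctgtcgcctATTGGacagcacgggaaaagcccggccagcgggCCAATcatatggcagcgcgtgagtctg
Idi1: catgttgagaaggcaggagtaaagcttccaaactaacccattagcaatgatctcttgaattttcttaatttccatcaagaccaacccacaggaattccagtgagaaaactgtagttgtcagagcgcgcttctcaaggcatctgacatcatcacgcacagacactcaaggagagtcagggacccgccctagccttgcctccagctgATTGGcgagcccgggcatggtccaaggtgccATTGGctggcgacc

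Over the whole 300-base windows, on both strands, CCAAT was found 5 times in Mvk, 4 times in Hmgcs1 and 2 times each in Mvd and Idi1. The first window of Pmvk held 1 match and the other none. That is 5 of 6 windows (83.3%), beside 37.4% of the 32851 windows of all genes and 9 of 11 windows of the genes that turn squalene into cholesterol (81.8%). GGGCGG, the Sp1 box, was in 4 of the 6 windows (66.7%) and in 35.7% of all. TCACNCCAC was in 1 of the 6, that of Hmgcs1 at 137 bases before the start, and in 1.24% of all windows, and CACGTG was in none of the 6 and in 7.15% of all. These are matches of letters, with no test, and were not compared with binding data.

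The enzymes lie on 4 chromosomes. In GENCODE vM21 (GRCm38, the same assembly as mm10), Hmgcs1 (ENSMUSG00000093930.2) spans chr13:119690379-119708260, Mvk (ENSMUSG00000041939.14) chr5:114444269-114460591, Pmvk (ENSMUSG00000027952.16) chr3:89454541-89469013, Mvd (ENSMUSG00000006517.5) chr8:122433601-122443422, Idi1 (ENSMUSG00000058258.14) chr13:8885501-8892451 and Fdps (ENSMUSG00000059743.12) chr3:89093588-89101959. Idi1 and Fdps share much sequence with other transcripts: 25.3% of the distinct 50-base windows of Idi1 transcripts and 26.2% of those of Fdps also occur in transcripts of other genes, mainly Gm13502 for Idi1 (17.7%) and the overlapping Gm43738 for Fdps (23.4%). For Hmgcs1 the share was 11.6%, mostly with the antisense gene Gm48342 (10%), for Mvk 0.712%, and for Pmvk and Mvd 0. None of these partner genes is among the genes counted here, so no read was assigned to them. Windows repeated at another place, as with Gm13502 for Idi1 and with Gm3571 for Fdps (12.1%), can fail the filter on mapping quality, and whether this lowered the counts of Idi1 and Fdps was not tested.

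With the floxed allele of Nelfb still in place, Hmgcs1 was the most abundant enzyme per length and Idi1 the least. In EV-GFP, read counts scaled to a common library size by TMM (CPM) per kilobase of exon averaged 110.9 ± 16.2 (SD, n = 2) for Hmgcs1, 50.4 ± 9.51 for Mvd, 31.6 ± 0.314 for Mvk, 24.3 ± 1.61 for Fdps, 19.1 ± 1.77 for Pmvk and 2.06 ± 0.615 for Idi1. The 2 replicates of neighbouring genes in this order did not overlap, so the order held in both. The labelled cell type was matched by its markers, with 10 of 11 fibroblast markers above 1 CPM in every library, led by Fn1, and with the epithelial and endothelial lists at a summed level of at most 2.07 and 4.74 CPM. The blood list, led by Cd68, reached at most 5.98 CPM, the hepatocyte list, led by Alb, 18.9, and the adipocyte list, led by Fabp4, 125.

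Nelfb itself fell in EV after Ad-Cre, from 46.1 and 39.5 CPM in EV-GFP to 7.97 and 5.46 CPM in EV-Cre (log2 fold change −2.67, standard error 0.215, adjusted p = 2.53e-05, edgeR's quasi-likelihood test, Benjamini-Hochberg adjustment over the 13805 genes tested). Reads of ectopic and endogenous Nelfb count alike. Nelfb was at 75.9 and 60.5 CPM in WT-Cre, 104 and 119 CPM in MT194-Cre, 116 and 128 CPM in MT486-Cre, and 169 and 208 CPM in DMT-Cre. So every construct that carried NELFB kept Nelfb RNA above EV-GFP after Ad-Cre, and the double mutant had the highest level.

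All 6 enzymes were lower in EV-Cre than in EV-GFP, whereas 5.94% of all genes tested were called lower. Genes were called where the adjusted p was below 0.05 and the log2 fold change beyond 0.5 in size. Ad-Cre and the loss of Nelfb come together in this comparison, so their parts cannot be told apart within it. All 6 passed the filter on low counts. Hmgcs1, the entry enzyme, read 562 CPM in replicate 1 and 457 in replicate 2 of EV-GFP and 57.8 and 38.3 in EV-Cre, a 10.6-fold decrease (log2 fold change −3.41, standard error 0.429, adjusted p = 0.000287). The reading of 38.3 CPM was the lowest of the 20 libraries. Mvk, the first kinase, went from 85.2 and 84.0 CPM to 13.4 and 10.2, 7.18-fold lower (−2.84, standard error 0.245, adjusted p = 3.26e-05). Pmvk, the second kinase, changed least, from 34.9 and 30.6 CPM to 9.28 and 11.6 (−1.65, standard error 0.208, adjusted p = 0.000288). Of the 6 enzymes, Pmvk was the one with replicate 2 above replicate 1 in EV-Cre.

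The last 3 steps, Mvd, Idi1 and Fdps, were lower as well. Mvd went from 106 and 81.2 CPM to 8.60 and 7.53, 11.6-fold lower (−3.54, standard error 0.374, adjusted p = 9.84e-05). Fdps went from 107 and 97.3 CPM to 8.33 and 7.49, 12.9-fold lower (−3.69, standard error 0.424, adjusted p = 0.000181). In neither gene did the groups come near each other. Idi1 rested on few reads, 178 and 117 in EV-GFP (8.75 and 5.71 CPM) against 17 and 1 in EV-Cre (0.766 and 0.0471 CPM), so its decrease, −4.11 on the log2 scale (adjusted p = 0.00836), is the least precise with a standard error of 0.872, and without EV-Cre replicate 2 it was −3.23 with an adjusted p of 0.0763, and without EV-Cre replicate 1 it was −7.10 with an adjusted p of 0.0144. Over 10 alternative settings the call of Idi1 was kept in 8. In rank from the lowest log2 fold change among 13805 genes, Idi1 was at 10, Fdps at 17, Mvd at 26, Hmgcs1 at 36, Mvk at 56 and Pmvk at 255. In bulk RNA, fewer cells of a kind and less RNA per cell cannot be told apart.

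**Figure D1:**
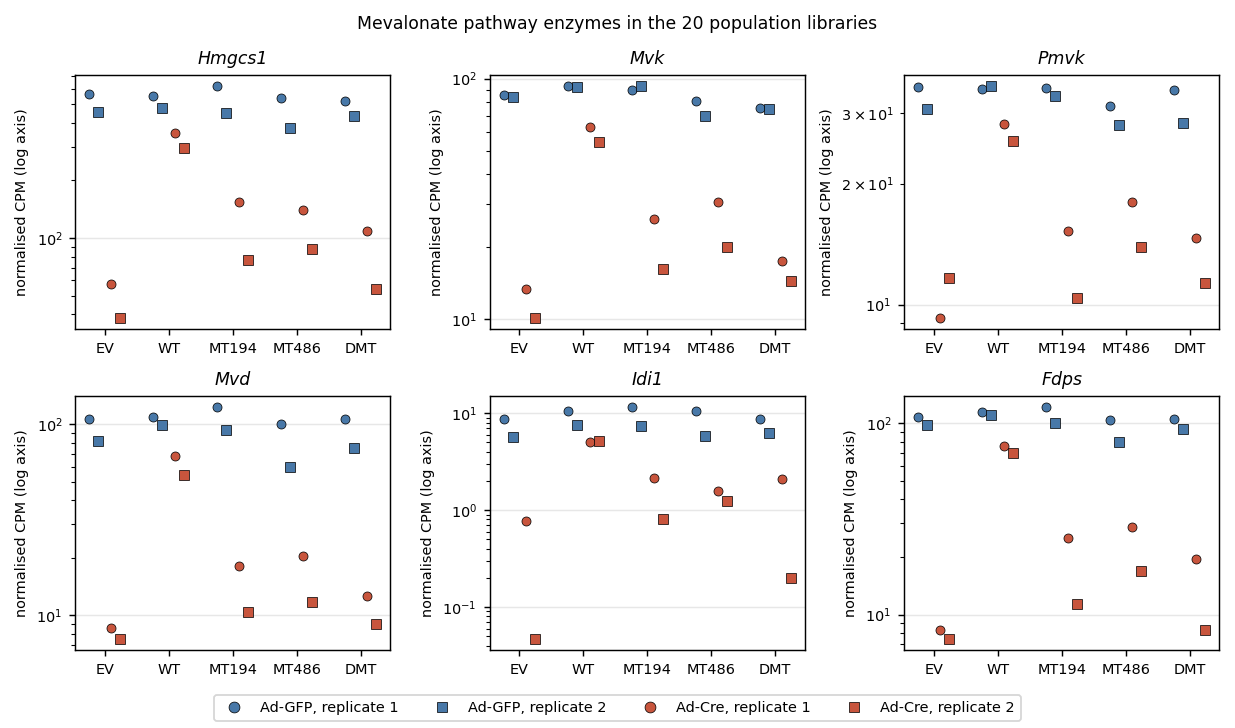
Normalised CPM (log axis) of each enzyme in the 20 population libraries, by construct, with blue symbols for Ad-GFP and red for Ad-Cre, circles for replicate 1 and squares for replicate 2. Hmgcs1 falls from 562 and 457 CPM in EV-GFP to 57.8 and 38.3 in EV-Cre, stays at 352 and 295 in WT-Cre and lies between 53.8 and 155 in the 3 mutants with Ad-Cre.

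Since the enzymes did not fall by the same factor, their order per length changed. In EV-Cre it was Hmgcs1 at 10.5 ± 2.99 CPM per kilobase (SD, n = 2), Pmvk at 6.10 ± 0.970, Mvk at 4.40 ± 0.849, Mvd at 4.34 ± 0.408, Fdps at 1.88 ± 0.143 and Idi1 at 0.116 ± 0.145. Pmvk was thus at the fifth place in EV-GFP and at the second in EV-Cre, and Mvk and Mvd overlapped.

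The route downstream of Fdps split by branch. Of the 12 genes that lead from farnesyl diphosphate through squalene to cholesterol, 12 were lower in EV-Cre, beside 5.94% of all genes, with a median log2 fold change of −2.79 against 0.00036 over all genes tested and −3.47 over the 6 enzymes. Fdft1, squalene synthase, fell by 2.80 (log2; standard error 0.343, adjusted p = 0.000252) and Nsdhl, a demethylating enzyme of the later route, by 3.52 (standard error 0.192, adjusted p = 1.52e-06). Ebp fell least, by 1.32 (standard error 0.311, adjusted p = 0.0142). Of the 14 genes that use isoprenoids in other ways, none was lower and 1 was higher, beside 5.84% of all genes: Coq2, a prenyltransferase of ubiquinone synthesis, at 26.8 and 31.1 CPM in EV-GFP and 40.5 and 46.8 in EV-Cre (log2 fold change 0.59, standard error 0.127, adjusted p = 0.00869). The median of this list was 0.13.

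Upstream, 5 of the 7 tested genes of acetyl-CoA supply and the HMG-CoA branch were lower in EV-Cre, beside 5.94% of all genes, with a median of −0.97. Acat2, which makes acetoacetyl-CoA in the cytosol, fell by 2.61 (standard error 0.373, adjusted p = 0.000678), Acss2, which activates acetate, by 1.60 (standard error 0.161, adjusted p = 7.17e-05) and Acly, which makes acetyl-CoA from citrate, by 1.2 (standard error 0.21, adjusted p = 0.00246). Of the 13 tested genes of SREBP control and sterol traffic, 4 were lower and none was higher, beside 5.94% and 5.84% of all genes. Among them were Insig1, a sterol-sensing retention protein (−3.57, standard error 0.265, adjusted p = 1.28e-05), Stard4, a sterol carrier (−2.74, standard error 0.472, adjusted p = 0.00238), and Srebf2, which encodes SREBP2 (−2.07, standard error 0.264, adjusted p = 0.000291). Srebf1, the gene of the related SREBP1, gave −0.28 (standard error 0.4, adjusted p = 0.727), and Scap, the SREBP escort, −0.19 (standard error 0.391, adjusted p = 0.822).

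**Figure D2:**
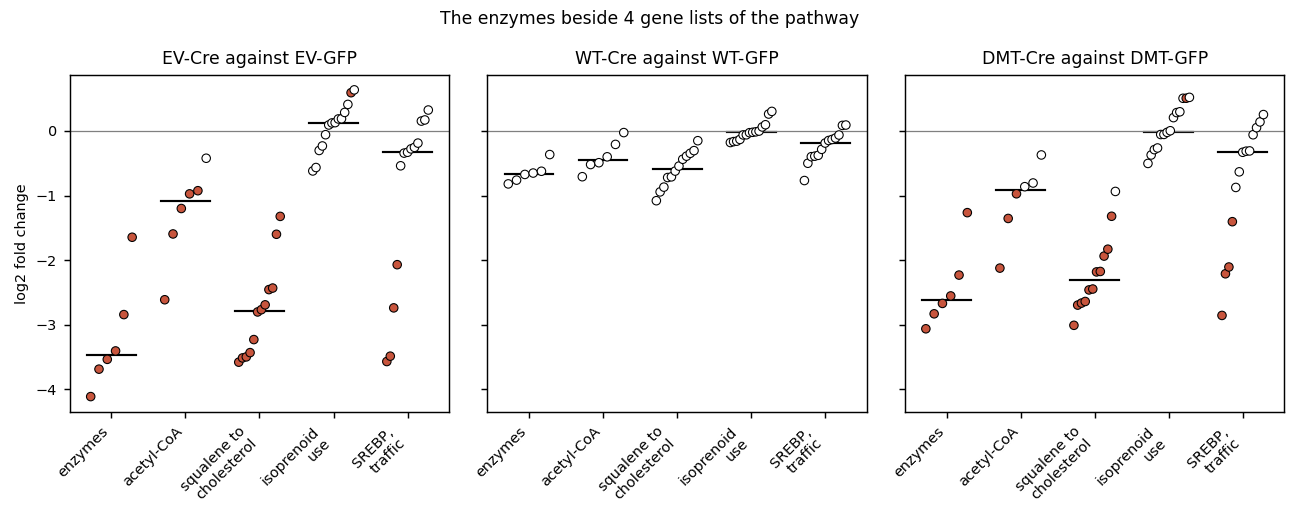
Log2 fold change of Ad-Cre over Ad-GFP in EV, WT and DMT for the 6 enzymes and 4 other gene lists, 1 point per gene, red where called, with bars at the medians (1 gene of the acetyl-CoA list is not reported and not shown). In EV, 6 of 6 enzymes and 12 of 12 squalene to cholesterol genes are called lower, while the isoprenoid use list lies around 0.

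Mmab, whose start lies 209 bases from that of Mvk on the opposite strand, works in cobalamin metabolism. It was also lower in EV-Cre (−1.55, standard error 0.16, adjusted p = 7.83e-05), by less than the −2.84 of Mvk, a difference that was not tested. Mmab was named for its position, after the neighbours of the 6 genes had been listed.

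Some other measures moved beside these results. In EV-Cre 15.5% and 18.8% of reads fell on no gene, against 13.9% and 17.7% in EV-GFP. Of 11 fibroblast markers, 10 were tested and 1, S100a4, was lower in EV-Cre (−1.47, standard error 0.24, adjusted p = 0.00171). The 4 adipocyte markers, led by Fabp4, summed to 112 and 88.3 CPM in EV-GFP and 76.0 and 49.7 in EV-Cre, with Fabp4 at −0.73 (standard error 0.275, adjusted p = 0.104). The hepatocyte markers summed to 3.491 and 5.656 CPM in EV-GFP and 6.668 and 6.686 in EV-Cre. The blood markers summed to 2.212 and 3.998 CPM in EV-GFP and 4.055 and 5.368 in EV-Cre. The part of these measures in the fall of the enzymes was not tested.

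Ectopic wild-type NELFB left the enzymes much nearer to their Ad-GFP levels. In WT-Cre they stood at 56.6% to 77.6% of WT-GFP (median 63.2%), against 5.78% to 32% (median 9.02%) in EV. Hmgcs1 read 553 and 478 CPM in WT-GFP and 352 and 295 in WT-Cre (log2 fold change −0.67, standard error 0.392, adjusted p = 0.895). Fdps read 115 and 109.6 CPM and then 75.5 and 69.9 (−0.62, standard error 0.376, adjusted p = 0.901). Every enzyme had both WT-Cre libraries below both WT-GFP libraries, as did 19.4% of all genes tested, yet 0 of 6 were called by edgeR or by DESeq2, beside 0% of all genes called lower, and 2 of 6, Mvk and Mvd, had an unadjusted p under 0.05. With the replicate number as a block, 3 were called lower, Hmgcs1 (−0.68, standard error 0.176, adjusted p = 0.0382), Mvk (−0.66, standard error 0.148, adjusted p = 0.0181) and Mvd (−0.78, standard error 0.13, adjusted p = 0.00376), beside 1.75% of all genes in that fit.

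The Cre effect in WT differed from that in EV. By the interaction test, 4 of 6 enzymes fell less in WT at an adjusted p under 0.05, beside 0.398% of all genes: Fdps by a log2 difference of 3.07 (standard error 0.55, adjusted p = 0.0278), Mvd by 2.78 (standard error 0.487, adjusted p = 0.0264), Hmgcs1 by 2.73 (standard error 0.562, adjusted p = 0.0485) and Mvk by 2.19 (standard error 0.326, adjusted p = 0.0113). Pmvk gave 1.28 (adjusted p = 0.0735) and Idi1 3.29 (adjusted p = 0.232). With the block, 6 of 6 passed, beside 9.37% of all genes. Leaving out any 1 of the 8 libraries, however, left 0 or 1 enzyme past the threshold in the fit without the block.

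The 3 mutants gave decreases between those of EV and WT. MT194, MT486 and DMT kept 13.3% to 38.1%, 17.3% to 54% and 12% to 41.6% of the enzymes' Ad-GFP levels, with medians of 19.2%, 24.9% and 16.4%. In MT194-Cre 5 of 6 enzymes were called lower than in MT194-GFP, beside 2.33% of all genes. Hmgcs1 there went from 621 and 447 CPM to 155 and 77.0 (−2.20, standard error 0.408, adjusted p = 0.00824). Over 10 alternative settings its log2 fold change ran from −2.80 to −1.79, and its call was kept in 7. Mvk, Pmvk, Mvd and Fdps kept theirs in 9 each. Mvd, from 123 and 92.7 CPM to 18.2 and 10.4, fell most of the called enzymes (−2.91, standard error 0.36, adjusted p = 0.000799), and Idi1 was not called (−2.65, standard error 0.733, adjusted p = 0.0623).

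In MT486-Cre 5 of 6 were called lower, beside 1.28% of all genes, and again Idi1 was the exception (−2.54, standard error 0.743, adjusted p = 0.0995). Hmgcs1 went from 541 and 373 CPM to 139.9 and 87.9 (−2.01, standard error 0.405, adjusted p = 0.0208). Fdps, from 104 and 79.2 CPM to 28.8 and 16.9, fell by 2.0 (standard error 0.391, adjusted p = 0.0173), and Pmvk by 0.89 (standard error 0.203, adjusted p = 0.0388). These calls rested on single libraries: leaving out replicate 1 of MT486-Cre left 2 enzymes called, leaving out replicate 1 of MT486-GFP also left 2, and leaving out replicate 2 of MT486-Cre left 0.

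In DMT-Cre 6 of 6 were called lower, beside 5.34% of all genes. Of 10 fibroblast markers tested in DMT, 1, S100a4, was lower too (−0.84, standard error 0.237, adjusted p = 0.0386) and 0 were higher. S100a4 gave −0.88 in MT194-Cre (adjusted p = 0.0537) and −0.33 in MT486-Cre (adjusted p = 0.622). The fibroblast markers summed to 22770 and 32380 CPM in DMT-GFP and 23190 and 42320 in DMT-Cre. In MT194 the sums were 22350 and 32470 with Ad-GFP and 23430 and 44450 with Ad-Cre. In MT486 they were 21680 and 31990, then 20960 and 34620. The adipocyte markers summed to 125 and 86.7 CPM in MT194-GFP and 79.5 and 70.6 in MT194-Cre, 121 and 84.3 in MT486-GFP and 91.2 and 64.4 in MT486-Cre, and 109.7 and 84.6 in DMT-GFP and 86.5 and 63.3 in DMT-Cre. The hepatocyte markers, led by Alb, summed to 4.82 and 5.32 CPM in MT194-GFP and 6.89 and 16.8 in MT194-Cre. In DMT they summed to 4.16 and 6.05 CPM with Ad-GFP and 5.695 and 10.56 with Ad-Cre. The MT486 sums were 4.892 and 5.012 CPM, then 4.476 and 7.007. The part of these markers in the enzymes' decrease was not tested. Hmgcs1 went from 521 and 432 CPM to 108 and 53.8 (−2.56, standard error 0.413, adjusted p = 0.00186). Mvd went from 106 and 75.2 CPM to 12.6 and 9.05 (−3.06, standard error 0.364, adjusted p = 0.000263). Fdps, from 105 and 93.0 CPM to 19.4 and 8.33, had its DMT-Cre replicates furthest apart among the well counted enzymes. Idi1, from 8.68 and 6.19 CPM to 2.10 and 0.199, was called with little margin (−2.67, standard error 0.747, adjusted p = 0.0375). Its value was −1.81 without DMT-Cre replicate 2 (adjusted p = 0.176) and −5.18 without DMT-Cre replicate 1 (adjusted p = 0.0119), and its call was lost without either DMT-GFP library (adjusted p = 0.134 and 0.0955). With the block all 6 enzymes were called in MT194, MT486 and DMT alike, beside 7.43%, 6.57% and 12% of all genes. Fitted on the compared groups alone, MT194 and MT486 gave 0 called enzymes and DMT 5.

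**Figure D3:**
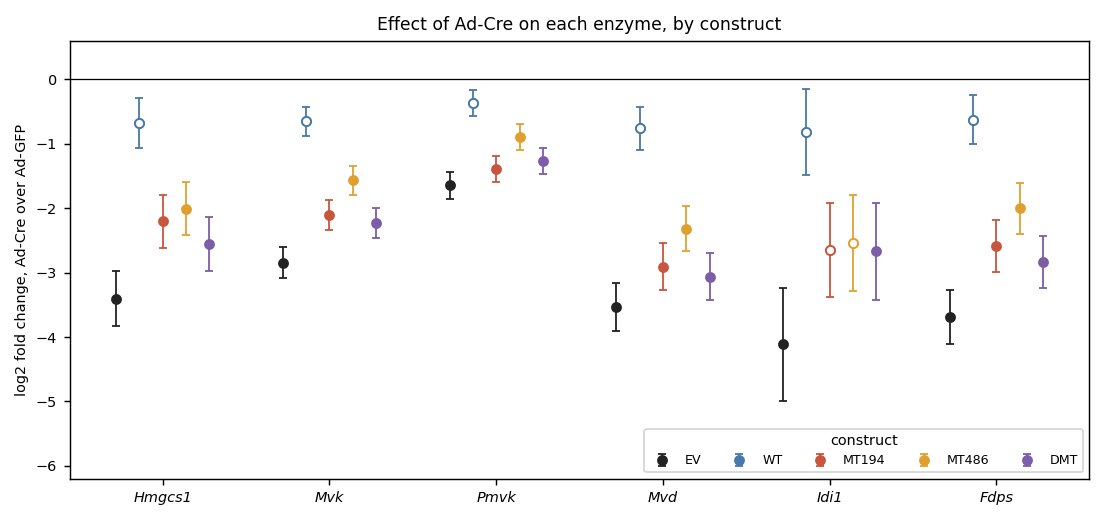
Log2 fold change of Ad-Cre over Ad-GFP for each enzyme and construct, with standard errors, filled where called and open where not. EV lies lowest for all 6 enzymes, from −1.65 for Pmvk to −4.11 for Idi1, and WT highest, from −0.37 to −0.82.

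The squalene to cholesterol genes gave the same order of constructs by their medians. Of 12 genes, 0 were called in WT, 10 in MT194, 10 in MT486 and 11 in DMT, all lower, beside 0%, 2.33%, 1.28% and 5.34% of all genes, with medians of −0.58, −2.22, −1.87 and −2.32. The enzymes' medians were −0.66, −2.40, −2.0 and −2.61. Of the isoprenoid use list, 0, 0, 0 and 1 were called, and the 1 in DMT was higher, beside 4.58% of all genes. Insig1 fell by 2.58 in MT194 (standard error 0.253, adjusted p = 0.000272), by 2.15 in MT486 (standard error 0.249, adjusted p = 0.00102) and by 2.86 in DMT (standard error 0.256, adjusted p = 5.43e-05). Srebf2 fell by 1.17 in MT194 (standard error 0.257, adjusted p = 0.0207) and by 1.41 in DMT (standard error 0.259, adjusted p = 0.00412), and gave −0.99 in MT486 (standard error 0.256, adjusted p = 0.0638).

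Whether a construct raised the enzymes over the empty vector was read among the Ad-Cre populations, all set against the same 2 EV-Cre libraries. WT-Cre had 6 of 6 higher, beside 3.89% of all genes. The log2 fold changes were 2.75 for Hmgcs1 (standard error 0.417, adjusted p = 0.00251), 2.32 for Mvk (0.241, adjusted p = 0.000312), 1.36 for Pmvk (0.206, adjusted p = 0.00251), 2.92 for Mvd (0.366, adjusted p = 0.000837), 3.61 for Idi1 (0.877, adjusted p = 0.0261) and 3.20 for Fdps (0.416, adjusted p = 0.00101). With the block all 6 were called, beside 11.1% of all genes. Of the 6, Idi1 alone lost its call when a library was left out, with an adjusted p of 0.205 when EV-Cre replicate 2 was dropped, 0.103 when WT-Cre replicate 1 was and 0.101 when WT-Cre replicate 2 was.

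By fitted log2 fold change MT194-Cre and MT486-Cre lay above EV-Cre for all 6 enzymes, by 0.30 to 1.85 and by 0.61 to 1.76, without passing the threshold in the fit without the block. For Pmvk, however, MT194-Cre (15.3 and 10.4 CPM) overlapped EV-Cre (9.28 and 11.6) and was lower in replicate 2. Without the block 0 of 6 were called in each, beside 0.0797% and 0.181% of all genes called higher, although 4 and 5 of the enzymes had an unadjusted p under 0.05, and DESeq2 called 1 and 3. The replicate block, which takes up the difference between the 2 experiments, called 4 in MT194 and 5 in MT486, beside 3.12% and 4.8% of all genes. In that fit Hmgcs1 rose by 1.24 in MT194 (standard error 0.184, adjusted p = 0.000837) and by 1.24 in MT486 (standard error 0.184, adjusted p = 0.000742). Mvk rose by 0.84 (standard error 0.17, adjusted p = 0.00557) and by 1.10 (standard error 0.169, adjusted p = 0.000802). Fdps rose by 1.18 (standard error 0.318, adjusted p = 0.0353) and by 1.5 (standard error 0.314, adjusted p = 0.01), and Pmvk gave 0.29 (standard error 0.153, adjusted p = 0.234) and rose by 0.60 (standard error 0.152, adjusted p = 0.0136).

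DMT-Cre was not separated from EV-Cre by either fit. The log2 fold changes were all above 0, from 0.31 to 1.48, with 0 of 6 called by edgeR, by DESeq2 and with the block, none at an unadjusted p under 0.05 without it, and 0.00724% of all genes called higher (0.225% with the block). Hmgcs1 gave 0.75 (standard error 0.394) without the block and 0.72 (standard error 0.183, adjusted p = 0.108) with it. With the block, Mvk gave 0.44 (standard error 0.172), Mvd 0.41 (0.165) and Fdps 0.77 (0.322). In that fit Pmvk gave 0.30 (0.152) and Idi1 1.45 (0.741). Unadjusted p-values of the blocked fit are not given here. The libraries did not overlap for 2 of the 6 enzymes, beside 10.1% of all genes, and overlapped for the other 4. This overlap runs across the 2 experiments. DMT-Cre replicate 2 stood at 53.8 CPM for Hmgcs1, against 57.8 and 38.3 in EV-Cre. For Fdps that library stood at 8.33 CPM, against 8.33 and 7.49. Within replicates 1 and 2, the log2 difference from EV-Cre was 0.90 and 0.49 for Hmgcs1 and 1.21 and 0.15 for Fdps. It was 1.36 and 1.07 for Idi1, and 0.66 and −0.039 for Pmvk. Values that miss the threshold do not show DMT-Cre and EV-Cre to be alike.

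**Figure D4:**
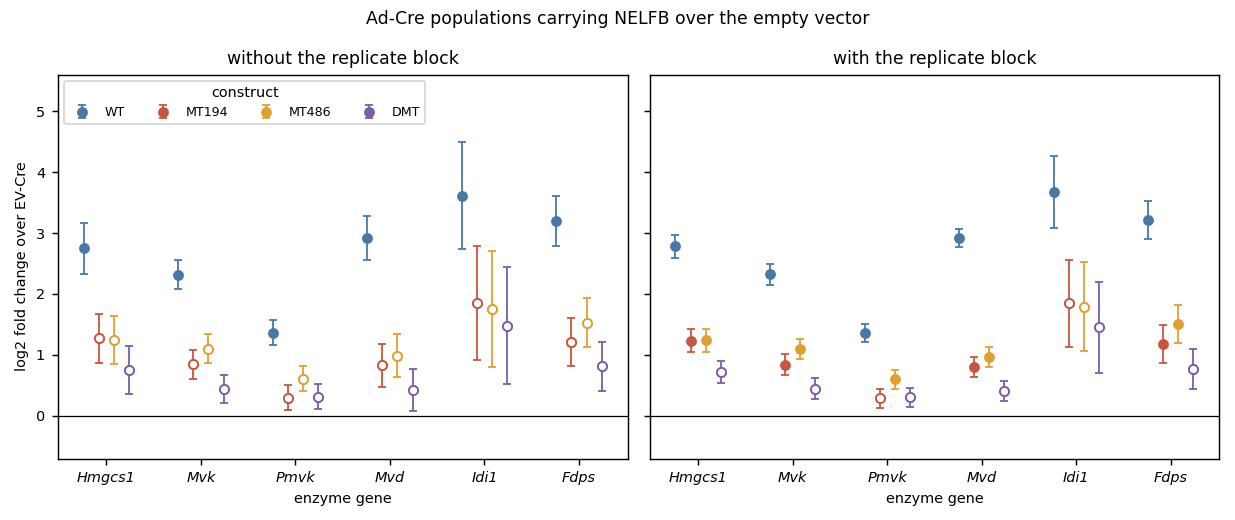
Log2 fold change over EV-Cre of each enzyme in the other Ad-Cre populations, with standard errors, filled where called, without (left) and with (right) the replicate block. WT is called for 6 of 6 in both panels, MT194 and MT486 are called for 4 and 5 on the right alone, and DMT for none.

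Against WT-Cre the mutants were lower, and here too the 3 comparisons share their WT-Cre libraries. MT194-Cre had 4 of 6 enzymes lower, Mvk, Pmvk, Mvd and Fdps, beside 0.826% of all genes, the largest being Mvd (−2.09, standard error 0.351, adjusted p = 0.0131). Without MT194-Cre replicate 2 or WT-Cre replicate 1 this count was 0, and without WT-Cre replicate 2 it was 2. DMT-Cre had 5 lower, all but Idi1, beside 1.42% of all genes, with Mvd again lowest (−2.50, standard error 0.357, adjusted p = 0.00314). That count was 1 without DMT-Cre replicate 2, 2 without WT-Cre replicate 1 and 3 without WT-Cre replicate 2. MT486-Cre had 0, beside 0.0942% of all genes, with log2 fold changes of −0.75 to −1.93, adjusted p-values from 0.0595 and an unadjusted p under 0.05 in 6 of 6, and DESeq2 called 5. With the block all 6 enzymes were lower in each mutant, beside 4.9%, 2.51% and 6.66% of all genes in MT194, MT486 and DMT.

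The Cre effects of the mutants were not told apart from that of EV without the block. By edgeR's interaction test 0 of 6 enzymes passed in MT194, MT486 and DMT, beside 0.00724% of all genes in each, with 2, 5 and 0 enzymes at an unadjusted p under 0.05, and DESeq2 gave 0 in each. With the block, Hmgcs1 fell less in MT194 by 1.18 (standard error 0.253, adjusted p = 0.0392), beside 0.464% of all genes, and Hmgcs1, Mvk and Mvd fell less in MT486 by 1.42, 1.27 and 1.22 (standard errors 0.253, 0.224 and 0.207, adjusted p-values 0.0106, 0.00867 and 0.00622), beside 1.62% of all genes. In DMT none passed with the block either, with values from 0.37 to 1.39 and adjusted p-values from 0.76, beside 0.00724% of all genes.

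Before Cre the constructs did not set the enzymes apart. Against EV-GFP, the enzymes stood at 101% to 125% in WT-GFP, 103% to 130% in MT194-GFP, 85.3% to 113% in MT486-GFP and 88.8% to 103% in DMT-GFP. By edgeR and DESeq2 0 of 6 were called in each, and none had an unadjusted p under 0.05, beside 0.00724% of all genes in MT486-GFP and 0% in the other groups.

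The 2 experiments differed in a way that most enzymes shared. Replicate 1 was higher than replicate 2 in 10 of 10 groups for Hmgcs1, Mvd and Fdps, 9 of 10 for Mvk and Idi1 and 8 of 10 for Pmvk, with median log2 differences of 0.51, 0.44, 0.23, 0.20, 0.63 and 0.17. Srebf2 went the other way in EV-GFP, at 483 CPM in replicate 1 and 703 in replicate 2. The Cre effect in EV held in each experiment, with log2 differences of −3.28 in replicate 1 and −3.57 in replicate 2 for Hmgcs1, and −3.67 and −3.68 for Fdps. Other measures moved with the experiments too. Reads on no gene went from 13.9% to 17.7% in EV-GFP and were higher in replicate 2 in all groups but DMT-Cre (15.8% then 15.6%). The summed fibroblast markers were higher in replicate 2 in 10 of 10 groups (22190 and 31720 CPM in EV-GFP) and the adipocyte markers lower in 10 of 10 (112 and 88.3). The part of these measures was not tested.

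Across the 20 population libraries the enzymes followed each other closely. Over the 15 pairs of enzymes Pearson's r of log2 CPM was 0.911 to 0.995 (median 0.987), and 0.365 to 0.946 (median 0.812) once group means were taken off. These libraries share constructs, virus and experiment, so the values describe these samples. Among 9435 genes averaging 10 CPM or more, those nearest to the enzymes' mean profile were Acat2 (r = 0.993), Fdft1 (0.992), Stard4 (0.989), Insig1 (0.988) and Lss (0.986), the first a neighbour upstream and the others sterol genes. Next came Wdr6 (0.986), Dbi (0.982), Smarca1 (0.98), Tmem55b (0.979) and Sesn1 (0.979), which are on none of the pathway lists. Nelfb gave 0.214.

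In the stable clones the enzymes differed by group in another order. Hmgcs1 read 300, 325 and 408 CPM in the 3 WT(N48) clones and 345, 217 and 288 in Δ-C60, but 137, 89.9 and 120 in the clones labelled WT, 71.9, 78.0 and 82.9 in MT194 and 154, 155 and 131 in MT486. Every clone with WT(N48) or Δ-C60 was above every clone of the other 3 groups. Fdps had the same split, with 63.0, 73.0 and 96.8 CPM in WT(N48) and 61.1, 78.2 and 63.5 in Δ-C60, against 24.0, 19.6 and 23.5 in WT, 15.1, 11.1 and 19.97 in MT194 and 28.5, 31.2 and 16.4 in MT486. Idi1 ran from 4.94 to 8.34 CPM in the 6 clones of WT(N48) and Δ-C60 and from 1.10 to 4.61 in the other 9, and Mvk from 40.5 to 107 and from 23.6 to 39.3. So 4 of the 6 enzymes had all 6 of these clones above the other 9, beside 1.07% of all genes tested. The summed fibroblast markers also had higher means in WT(N48) (21510 CPM) and Δ-C60 (20760) than in WT (10120), MT194 (17900) and MT486 (14120). Single clones overlapped in this sum, from 14990 to 25990 CPM in the 6 and from 7858 to 26480 in the other 9. The part of these markers was not tested.

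Pmvk and Mvd did not split. Pmvk ran from 24.6 to 51.0 CPM in the 6 clones and from 18.0 to 31.6 in the 9, and Mvd from 16.9 to 103 and from 10.4 to 27.8, its highest value being WT(N48) clone 3. The labels give pBabe for WT(N48) and Δ-C60 and pLenti for the rest, so vector and construct cannot be told apart in this split. The study's methods, however, describe lentiviral delivery for Δ-C60, and neither source used here says what N48 stands for, so the vector is given only as labelled. Clones and populations were normalized and fitted separately, and their levels are not compared here.

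**Figure D5:**
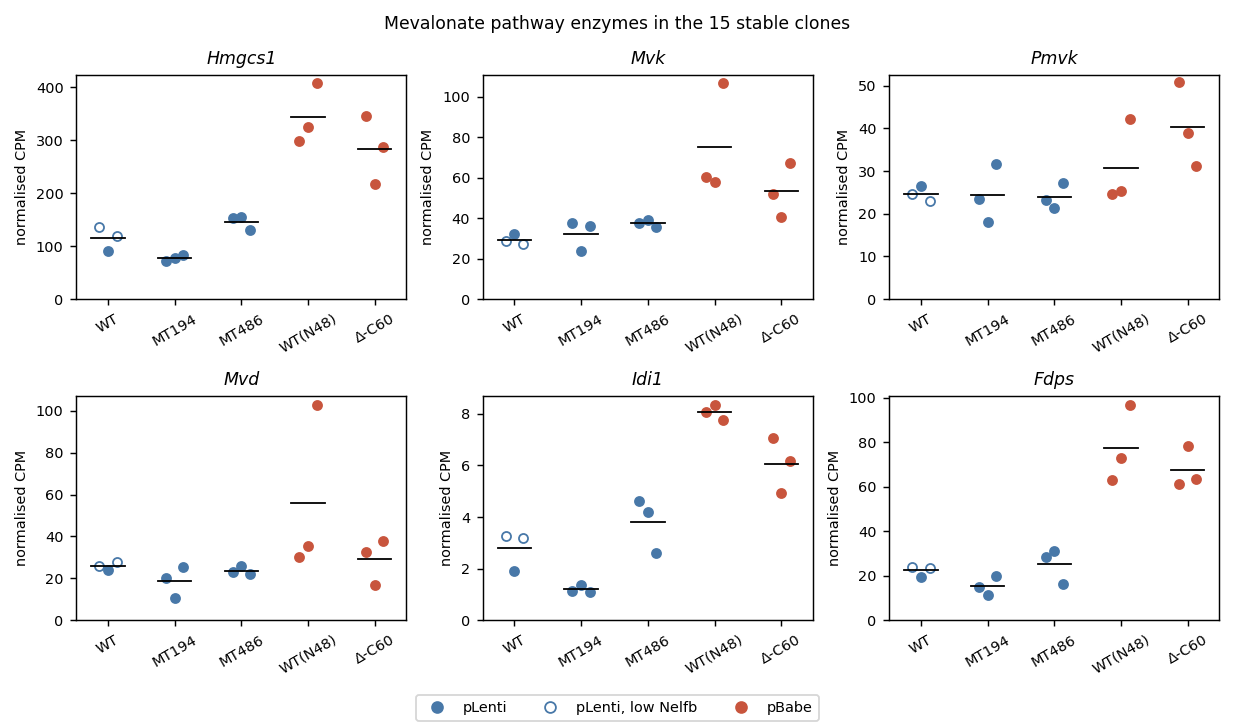
Normalised CPM of each enzyme in the 15 clones, 1 point per clone, with bars at the group means, blue for pLenti and red for pBabe as labelled, and open symbols for the clones labelled WT with little Nelfb. Hmgcs1, Mvk, Idi1 and Fdps are higher in all 6 pBabe clones than in all 9 pLenti clones, as are 1.07% of all genes, and Pmvk and Mvd overlap.

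Some clone libraries stood apart from their labels or from the rest. Nelfb was at 10.3 CPM in the library labelled WT clone 1 and 15.5 in WT clone 3, against 109 in WT clone 2 and at least 56.3 in all other clones, so that these labels go against the Nelfb reads. Hmgcs1 was nevertheless lowest in WT clone 2 (89.9 CPM against 137 and 120), as were Idi1 and Fdps, while Mvk (32.0 CPM against 28.7 and 27.1) and Pmvk (26.5 against 24.6 and 23.1) were highest there, and Mvd was lowest. MT486 clones 1 and 2 were far more alike than any other pair: a chi-square of their counts over genes, per degree of freedom, was 5.06, against 32.4 to 349 in the 14 other pairs of clones of 1 group and 34.0 to 197 in the 10 pairs of population replicates. They differed by more than sampling noise, but that they are independent clones is not shown, so the tests of MT486 clones were repeated with these counts summed as 1 library. MT194 clone 2 had a hepatocyte marker sum of 18.9 CPM, against at most 0.837 in the other clones, and a blood marker sum of 5.98, against at most 2.49. Δ-C60 clone 3 had an endothelial marker sum of 4.74 CPM, against at most 1.01 in the others. Without MT194 clone 2, MT194 had 3 enzymes called against WT(N48) where 4 were called with it, and without Δ-C60 clone 3, Δ-C60 had 2 against the clones labelled WT where 3 were called with it.

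Across the 5 clone groups, 4 of 6 enzymes differed by an F test of any difference (edgeR), beside 11.6% of all genes: Hmgcs1 (adjusted p = 0.000831), Fdps (adjusted p = 0.0019), Idi1 (adjusted p = 0.00423) and Mvk (adjusted p = 0.0191), and not Mvd (0.0971) or Pmvk (0.133). Without the 2 low-Nelfb clones 3 of 6 passed, Hmgcs1, Idi1 and Fdps, beside 1.27% of all genes. Relative to WT(N48), MT194 had 4 enzymes lower, beside 3.26% of all genes. They were Hmgcs1 (−2.15, standard error 0.208, adjusted p = 0.00054), Mvk (−1.21, standard error 0.261, adjusted p = 0.024), Idi1 (−2.74, standard error 0.328, adjusted p = 0.00191) and Fdps (−2.33, standard error 0.277, adjusted p = 0.00191). MT486 had 2 lower, Hmgcs1 (−1.23, standard error 0.202, adjusted p = 0.0285) and Fdps (−1.61, standard error 0.269, adjusted p = 0.0302), beside 0.174% of all genes, and 0 without any 1 of the MT486 clones, or without WT(N48) clone 1 or clone 2. DESeq2 called 4 enzymes in this comparison. With MT486 clones 1 and 2 summed as 1 library, an alternative chosen after seeing the data, 0 were called, beside 0.0297% of all genes, at −1.25 for Hmgcs1 (standard error 0.243, adjusted p = 0.155) and −1.73 for Fdps (standard error 0.319, adjusted p = 0.126), and the F test of any difference still passed 4 of 6.

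Δ-C60 was not separated from WT(N48). The enzymes stood at 52.1% to 131% of WT(N48) (median 78.8%), with 0 of 6 called by edgeR and by DESeq2, none at an unadjusted p under 0.05, and 0% of all genes called. The log2 fold change was −0.28 (standard error 0.199) for Hmgcs1 and −0.94 (standard error 0.443, adjusted p = 0.436) for Mvd. Relative to the libraries labelled WT, Δ-C60 had 3 enzymes higher, Hmgcs1, Idi1 and Fdps (1.29, 1.12 and 1.59, standard errors 0.202, 0.309 and 0.27, adjusted p-values 0.00638, 0.0426 and 0.00806), beside 5.11% of all genes, and WT(N48) had 4 higher, beside 1.17%. Without WT clones 1 and 3, which leaves 1 library in that arm, both counts were 0, beside 0.0214% and 0.0143% of all genes called, while the log2 fold changes of Hmgcs1 were 1.63 for Δ-C60 (standard error 0.306, adjusted p = 0.166) and 1.92 for WT(N48) (standard error 0.312, adjusted p = 0.153), both larger than with all 3. With 1 library left out, for WT(N48) the count was 1 without WT clone 1, 1 without WT clone 3 and 2 without WT clone 2, without WT(N48) clone 1 or without WT(N48) clone 2. MT194 and MT486 had 0 of 6 called against the libraries labelled WT, beside 1.63% and 0% of all genes called lower, with 2 and 0 at an unadjusted p under 0.05, and DESeq2 called 1 and 0. With MT486 clones 1 and 2 summed, MT486 again had 0.

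Of the 12 squalene to cholesterol genes, 6 were higher in all 6 clones of WT(N48) and Δ-C60 than in the other 9, beside 1.07% of all genes, among them Sqle, Lss, Cyp51, Hsd17b7 and Sc5d, and 6 overlapped, Fdft1, Tm7sf2, Msmo1, Nsdhl, Ebp and Dhcr7. Ebp ran from 23.5 to 53.9 CPM in the 6 clones and from 34.5 to 60.8 in the 9. Relative to WT(N48), MT194 had 8 of the 12 genes lower, beside 3.26% of all genes, and MT486 1, beside 0.174%, or 0 with MT486 clones 1 and 2 summed. In MT194 the list had a median of −1.39, against −1.87 for the enzymes, and Insig1 (−2.31, standard error 0.306, adjusted p = 0.00419) and Srebf2 (−1.34, standard error 0.192, adjusted p = 0.00529) were lower too. Insig1 read 126 ± 36.9 CPM (SD, n = 3) in WT(N48) and 91.0 ± 5.94 in Δ-C60, against 27.3 ± 1.29 in the clones labelled WT and 25.4 ± 11.7 in MT194. Of the 14 isoprenoid use genes, 1 was lower in MT194 than in WT(N48), beside 3.26% of all genes. It was Rabggtb, a subunit of the Rab prenylating enzyme (−1.0, standard error 0.185, adjusted p = 0.014). Among 9457 genes, those nearest to the enzymes' mean profile over the 15 clones included Insig1 (r = 0.961), Lss (0.953), Hsd17b7 (0.94), Cyp51 (0.939) and Stard4 (0.938). Over the 15 pairs of enzymes r was 0.429 to 0.96 in the clones (median 0.697), and −0.289 to 0.93 (median 0.391) once group means were taken off.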

How the data were processed

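RNA of 20 populations and 15 clones was sequenced as 50-base single reads from stranded poly(A) libraries. Bowtie2 (whose alignments lose reads that span exon junctions), SAMtools, HTSeq and DESeq2 are named in the submitters' processing notes with build mm10. The deposited values are raw counts per gene, which the authors made from alignments of mapping quality 30 or more. Whether counting used the strand is not given in the sources used here. Reads on no gene, 9.14% to 21.3% of a library, were left out.

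From the counts, edgeR 4.0.16 in R 4.3.3 (TMM, filterByExpr, robust quasi-likelihood fit, 1 mean per group) tested 13805 genes in the populations and 13223 in the clones, separately. Benjamini-Hochberg adjustment ran over all genes tested. Calls needed an adjusted p below 0.05 and a log2 fold change beyond 0.5 in size, or the adjusted p alone for interactions and the F test. Standard errors are the log2 fold change over the square root of F. Replicates are described as independent experiments or clones, and p-values speak for these samples only. They set each difference against a spread between libraries that is estimated over all groups of a fit. Without the block, that spread in the populations includes the difference between the 2 experiments. Replicate numbers pair the populations, since the methods describe 2 independent experiments and deviations correlated at 0.42 to 0.73 in 45 of 45 pairs of groups, so the blocked value is given where it changes a call. Alternatives were DESeq2 1.42.0, its size factors, no filter, a threshold of 1, the compared groups alone, MT486 clones 1 and 2 summed (added after seeing the data), and each library left out, a lone library then being assumed to vary like the others. The steps were tested on simulated data. Per-length levels divide CPM by the union of GENCODE vM21 exons.

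Genes named are the 6 enzymes, Nelfb, 4 pathway lists and the 10 genes nearest in profile. Also named are markers of cell types, Mmab for its position beside Mvk, and genes sharing sequence with the enzymes. Members and lists were chosen with earlier results of these data known. Some genes that these rules take in are not reported here.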

Additional observations from a re-analysis of the deposited data

Results flagged for a closer look

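The effect of Ad-Cre differed between WT and EV populations by the interaction test for 4 enzymes, which is what singled them out. The difference in log2 fold change was 2.73 for Hmgcs1 (standard error 0.562, adjusted p = 0.0485), 2.19 for Mvk (standard error 0.326, adjusted p = 0.0113), 2.78 for Mvd (standard error 0.487, adjusted p = 0.0264) and 3.07 for Fdps (standard error 0.55, adjusted p = 0.0278), all from edgeR with Benjamini-Hochberg adjustment. Groups of 2 or 3 libraries are too small for a test of single outlying samples.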

How the results depend on the processing

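Of 153 counts of called enzymes with a library left out, 126 stayed within 1.5 times the reported count, and of 166 under the other alternatives 144 did. Counts of 0 that stayed at 0 are included among these, so the shares do not describe the counts above 0 alone. With the replicate block, 3 enzymes were called in WT-Cre against WT-GFP, 4 in MT194-Cre and 5 in MT486-Cre against EV-Cre, 6 in MT486-Cre against WT-Cre, 1 in the interaction for MT194 and 3 in that for MT486. In the clones, where numbers pair nothing (3 of 30 pairs of groups over 0.1), the block gave 1 for MT486 against WT(N48). The block moved no other count by over 1.5 times. DESeq2 called 1, 3 and 5 in MT194-Cre and MT486-Cre against EV-Cre and MT486-Cre against WT-Cre, 1 for MT194 against clones labelled WT and 4 for MT486 against WT(N48). The compared groups alone gave 0 for MT194 and for MT486 against their Ad-GFP groups, 0 for MT194-Cre and 3 for DMT-Cre against WT-Cre, 1 for Δ-C60 against clones labelled WT and 1 for MT486 against WT(N48). With MT486 clones 1 and 2 summed, MT486 against WT(N48) gave 0. With no filter, MT486-Cre against WT-Cre gave 1. Without both WT clones low in Nelfb, Δ-C60 and WT(N48) against the clones labelled WT gave 0 each. With 1 library left out, the count ranged from 0 to 1 for the interaction of WT, 0 to 4 for MT194-Cre and 1 to 5 for DMT-Cre against WT-Cre, 0 to 4 for MT486-Cre against MT486-GFP, 0 to 2 for MT486 against WT(N48) and 1 to 4 for WT(N48) against clones labelled WT. Of 540 log2 fold changes of single enzymes, 484 kept their direction and side of the threshold, 34 lost a call, 20 gained one and 2 changed sign: Pmvk in MT194-Cre against EV-Cre to −0.0073 without MT194-Cre replicate 1 (range −0.0073 to 0.55), and Idi1 in DMT-Cre against EV-Cre to −1.03 without DMT-Cre replicate 1 (range −1.03 to 4.47). The cause was not tested. Depth limits Idi1 most, with 1 read in EV-Cre replicate 2.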
